A study of Mus musculus with 8 samples.

Results

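The genes described here are 10 genes of fibroblasts and of the extracellular matrix: Col1a1, Col1a2, Col3a1, Fn1, Postn, Sparc, Dcn, Timp3, Vim and Thy1. They were chosen by name: every non-control probe whose gene name in the array files equals one of these symbols was taken. The 10 are part of 27678 gene names on the array, and 21 probes with 39 spots per array carry their names. Each of the 10 had at least 1 probe kept for testing, and 15 of the 21 probes were kept.

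Fibroblasts and other mesenchymal cells secrete the collagens, glycoproteins and proteoglycans that make up connective tissue. Fibrillar collagens are assembled from alpha chains in the endoplasmic reticulum, secreted, trimmed and cross-linked outside the cell. Germ cells are not a main source of this matrix, but the cells around them in the embryo and in culture are. The genes are described here as RNAs that were or were not recovered with DAZL, a germ cell protein that binds messenger RNAs and affects their translation.

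The cells were primordial germ cells (PGCs, the embryonic precursors of eggs and sperm) made by differentiation of mouse embryonic stem cells of the V6.5 line (C57BL/6 129SV mixed strain) that carry Dazl-GFP-V5. Feeder cells were removed by their attachment to plastic before differentiation, and cells were harvested after 12 days. The 4 groups had 2 arrays each: total RNA input, a mock immunoprecipitation (IP) using normal mouse IgG, an anti-V5 IP and an anti-GFP IP (V5 IP and GFP IP in the plots). All 4 came from cells with the tagged protein, lysates were not crosslinked with ultraviolet light, and no group lacked the tag. The series' design text speaks of independent IP experiments but does not tie them to the replicate numbers. The p-values therefore measure how far these arrays spread, and part of that spread may be technical. Replicate 1 of each group was on slide 1 and scan 1 and replicate 2 on slide 2 and scan 2. A group's position was the same on slide 1 and slide 2, so effects of position and group cannot be told apart.

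Values are the log2 processed intensity of a probe less the 75th percentile of its array (normalized log2 signal), so each describes an RNA relative to the other RNA on that array. They are not amounts recovered per cell, and levels of different genes are not compared because each probe has its own brightness. A gene was called when limma's adjusted p was under 0.05. The 75th percentile of processed intensity ranged from 352 on mock IP 1 to 1130 on anti-V5 IP 2, and the share of probes well above background ranged from 61.3% on mock IP 1 to 70.5% on input 1. In a principal component analysis, component 1 took 57.7% of the variance and component 2, which set mock IP 1 apart, took 24.5%. Values of the 10 genes and medians of the related lists relative to mock IP are therefore also given without that array. As a check of the IP, Dazl RNA itself was higher than in mock IP by 2.63 ± 0.39 (log2, SE) in anti-V5 IP and by 2.71 ± 0.39 in anti-GFP IP, with adjusted p of 0.00499 and 0.00394. Against input the rise was smaller, 1.30 ± 0.39 and 1.39 ± 0.39 (adjusted p 0.0419 and 0.0298). Mock IP itself lay 1.33 ± 0.39 below input for Dazl (adjusted p 0.0641, and 0.0123 when blocked by slide).

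The labelled cell type was checked against marker genes. All 9 of the PGC markers on the array were well above background on both input arrays, as were 8 of 8 pluripotency markers. Most other lists passed the same check: 5 of 5 smooth muscle, 5 of 5 cardiac muscle, 4 of 4 neuron, 9 of 10 endoderm and 4 of 5 endothelium markers were well above background on both input arrays, and 2 of 4 blood markers. Of 10 further fibroblast or mesenchyme markers, 8 were well above background on both input arrays, while Fap and Meox1 were not well above background on any of the 8 arrays. The input RNA thus held marker transcripts of many cell types, and the check does not set PGCs apart from the others. In RNA from bulk cultures, fewer cells of a type and less RNA per cell cannot be told apart. The summed level of the mesenchyme markers, as log2, was 3.45 and 3.63 in input, 3.91 and 3.92 in mock IP, 2.66 and 3.36 in anti-V5 IP and 2.67 and 3.32 in anti-GFP IP. That sum rests on its brightest probes, and the markers one by one stood closer to the background. Of the 8 tested, 0 were called higher and 1 lower in each antibody IP relative to mock IP, with median log2 fold changes of -0.46 in anti-V5 IP and -0.45 in anti-GFP IP where all genes had -0.44. The part of these markers in the values of the 10 genes was not tested.

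Timp3 was the single gene of the 10 that was called higher in the antibody IPs, and the other 9 had values below mock IP in both. In anti-V5 IP relative to mock IP 1 of the 10 was called higher and 2 lower, where 14.6% of all 19033 tested genes were called higher and 21.4% lower. In anti-GFP IP relative to mock IP the counts were also 1 and 2, against 16.3% and 26.5% of all genes. Against input, anti-V5 IP had 1 higher and 4 lower (all genes 14.1% and 13.7%) and anti-GFP IP had 1 higher and 5 lower (16% and 16.8%). The share called higher, 1 of 10, was near the background in each comparison, and the share called lower was near it relative to mock IP and above it against input. The median log2 fold change of the 10 relative to mock IP was -0.96 in anti-V5 IP and -1.10 in anti-GFP IP, where that of all genes was -0.44 in both. Mock IP 1 moved these values. Without it the medians were -0.60 and -0.74 (all genes -0.36 in both), and 1 of the 10 was called higher and 0 lower in each, where 5.57% of all genes were higher and 0.41% lower in anti-V5 IP and 8.99% and 5.49% in anti-GFP IP. Without mock IP 2 the medians were -1.29 and -1.27 (all genes -0.49 in both). Against input the median of the 10 was -1.004 and -0.97, where that of all genes was -0.11 in both. With arrays centred on the median of tested genes in place of the 75th percentile, the median of all genes relative to mock IP moved to -0.29 and -0.26, and anti-V5 IP had 1 of the 10 higher and 0 lower, where 14.9% and 8.2% of all genes were called (17.6% and 15.1% in anti-GFP IP).

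**Figure D1:**
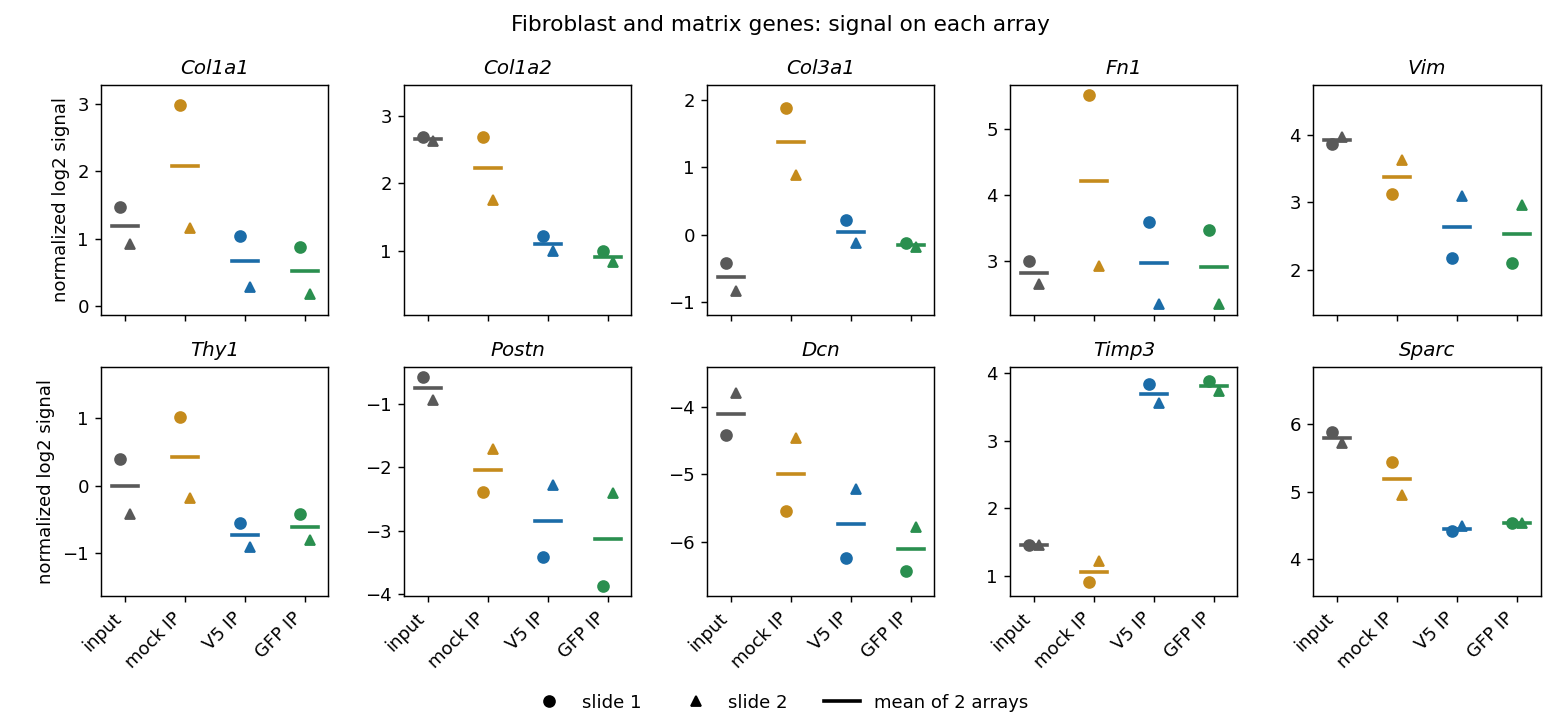
Normalized log2 signal (y axis) of each of the 10 genes on each array, by group; circles are slide 1, triangles slide 2 and bars the mean of 2 arrays. Timp3 lies near 3.70 in anti-V5 IP and 3.81 in anti-GFP IP and near 1.06 in mock IP, while Fn1 and Col1a1 stand high on mock IP 1.

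Slide mattered for these calls. Arrays with the same replicate number deviated together, with correlations of 0.30 to 0.78 between the replicate differences of the 6 pairs of groups. When blocked by slide, 1 gene was called higher and 8 lower in anti-V5 IP relative to mock IP, where 19.4% and 38.4% of all genes were called. In anti-GFP IP relative to mock IP the blocked counts were 1 and 9, with 20.9% and 40.2% of all genes. Against input they were 1 and 5 in anti-V5 IP (all genes 20.4% and 24.2%) and 1 and 5 in anti-GFP IP (22% and 26.8%). Each of the 9 genes other than Timp3 was lower in both antibody IPs than in the mock IP of the same slide, on both slides. Most of the array lay below mock IP as well. The median of all genes by slide was -0.53 and -0.34 in anti-V5 IP and -0.52 and -0.36 in anti-GFP IP. Both anti-V5 IP arrays lay below both mock IP arrays for 6 of the 10 and for 47.2% of all genes. In anti-GFP IP this held for 8 of the 10 and for 48.2% of all genes.

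**Figure D2:**
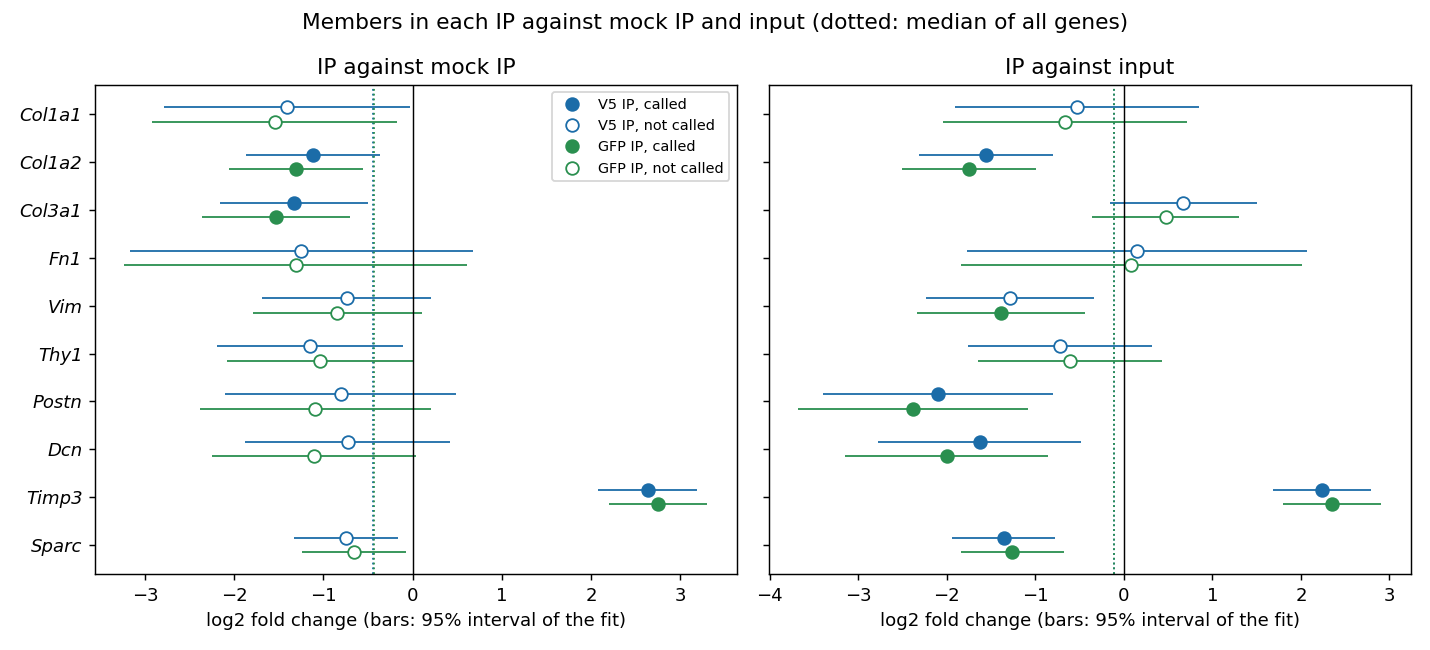
Log2 fold change (x axis) of the 10 genes in anti-V5 IP and anti-GFP IP relative to mock IP (left) and input (right), with 95% intervals of the fit; filled points were called and dotted lines are the medians of all genes. Dcn in anti-GFP IP was not well above background, so its point shows the fitted value and not a measured one. Timp3 lies at 2.64 and 2.75 relative to mock IP, and all other points of the left panel are below 0.

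Timp3 encodes a secreted inhibitor of matrix metalloproteinases that binds to the extracellular matrix. Its normalized log2 signal was 1.46 on both input arrays, 0.91 and 1.21 in mock IP, 3.84 and 3.56 in anti-V5 IP, and 3.89 and 3.74 in anti-GFP IP. In processed intensity this was 660 and 1780 in mock IP against 9270 and 13300 in anti-V5 IP and 9490 and 14400 in anti-GFP IP. Every antibody IP array was higher than every mock IP and input array. The anti-V5 IP exceeded mock IP by 2.64 ± 0.24 (log2, SE), a 6.22-fold difference, with an adjusted p of 0.00212. The anti-GFP IP exceeded mock IP 6.74-fold (2.75 ± 0.24), with an adjusted p of 0.00176. Within slides the difference from mock IP was 2.93 and 2.34 for anti-V5 IP and 2.98 and 2.52 for anti-GFP IP. Against input, anti-V5 IP was 4.72-fold higher (adjusted p 0.00207) and anti-GFP IP 5.11-fold higher (adjusted p 0.00180). Ranked from the highest fold change down, Timp3 stood at 280 of 19033 genes in anti-V5 IP relative to mock IP and at 241 in anti-GFP IP relative to mock IP. The call held in each of the 16 alternatives run for each of these 4 comparisons, with folds of 5.59 to 7.06 for anti-V5 IP relative to mock IP and 6.05 to 7.82 for anti-GFP IP. The mock IP lay 0.40 ± 0.24 (log2) below input, which was not called (adjusted p 0.273). A single probe measured Timp3, so no second probe checks it.

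The 3 fibrillar collagen genes of the set encode the alpha1 and alpha2 chains of type I collagen (Col1a1 and Col1a2) and the chain of type III collagen (Col3a1). In the antibody IPs all 3 lay below mock IP on both slides, but they stood differently against input. Col1a2 had a normalized log2 signal of 2.69 and 2.63 in input, 2.68 and 1.76 in mock IP, 1.22 and 0.99 in anti-V5 IP and 0.998 and 0.83 in anti-GFP IP. The antibody IPs thus lay below all input and mock IP arrays. Relative to mock IP, Col1a2 fell by 1.12 ± 0.32 on the log2 scale in anti-V5 IP (adjusted p 0.0352) and by 1.31 ± 0.32 in anti-GFP IP (adjusted p 0.0185). Against input it was 2.94-fold lower in anti-V5 IP (adjusted p 0.0129) and 3.36-fold lower in anti-GFP IP (adjusted p 0.00719).

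Col3a1 gave -0.41 and -0.83 in input, 1.87 and 0.89 in mock IP, 0.22 and -0.12 in anti-V5 IP, and -0.12 and -0.17 in anti-GFP IP. Mock IP was the highest group, above every array of the other groups. It was the single gene of the 10 called in mock IP against input, where it was 4.01-fold higher (adjusted p 0.0261), with 2.29 on slide 1 and 1.72 on slide 2 (log2). In that comparison 6.63% of all genes were called higher and 4.03% lower. When blocked by slide, 2 of the 10 were higher (Col3a1 and Fn1) and 2 lower (Postn and Dcn), where 21.4% and 13.3% of all genes were called. Relative to mock IP, Col3a1 was 2.52-fold lower in anti-V5 IP (adjusted p 0.0290) and 2.88-fold lower in anti-GFP IP (adjusted p 0.0159). Against input it was not called: the difference was 0.67 (95% interval -0.16 to 1.50) in anti-V5 IP and 0.47 (-0.36 to 1.31) in anti-GFP IP.

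These collagen calls depended on single arrays. In anti-V5 IP relative to mock IP, leaving out mock IP 1, either anti-V5 IP array or either input array ended both calls, with differences of -1.23 to -0.66 for Col1a2 and -1.50 to -0.84 for Col3a1, and adjusted p up to 0.109 and 0.108. Leaving out mock IP 1 gave the value nearest 0 for each. In anti-GFP IP relative to mock IP, Col1a2 was not called without mock IP 1, anti-GFP IP 1 or anti-GFP IP 2 (-1.39 to -0.85, adjusted p up to 0.0765), nor Col3a1 without mock IP 1 or anti-GFP IP 1 (-1.55 and -1.03, adjusted p up to 0.0738). The Col1a2 calls against input were lost without either input array, with differences of -1.58 and -1.53 in anti-V5 IP and -1.77 and -1.72 in anti-GFP IP. The Col3a1 call in mock IP against input was lost without either input array or mock IP 1 (1.51 to 2.21).

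Col1a1 was measured by 10 spots of its brightest probe on each array. It gave 1.47 and 0.92 in input, 2.98 and 1.17 in mock IP, 1.04 and 0.29 in anti-V5 IP and 0.87 and 0.18 in anti-GFP IP. Both mock IP arrays lay above all 4 antibody IP arrays, but they were far apart from each other. The difference from mock IP was -1.41 ± 0.59 (log2, SE; adjusted p 0.0947) in anti-V5 IP and -1.55 ± 0.59 (adjusted p 0.0674) in anti-GFP IP. When blocked by slide these had an adjusted p of 0.00941 and 0.00522. Without mock IP 1 they were -0.50 and -0.64, which were not called, and without mock IP 2 they were -2.31 and -2.45, which were (adjusted p 0.0180 and 0.0139). The other 2 kept Col1a1 probes gave -1.37 and -1.18 in anti-V5 IP relative to mock IP.

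The chains of type I collagen did not keep their ratio between input and IP. Relative to Col1a2 and to the input of the same slide, Col1a1 was higher by 1.51 and 1.12 (log2) in mock IP, 1.04 and 1.01 in anti-V5 IP, and 1.09 and 1.06 in anti-GFP IP. The same ratio for Col3a1 over Col1a2 was higher by 2.29 and 2.59 in mock IP, 2.10 and 2.35 in anti-V5 IP and 1.98 and 2.46 in anti-GFP IP. All 6 IP arrays, mock IP included, thus showed these shifts in the same direction. The ratios are a description with no test, and all share the 2 input arrays.

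Promoter sequence of the genes whose calls frame this set is shown as genomic context, to set Timp3 beside the collagen genes that were called lower together. These letters are DNA upstream of the gene start and not part of the RNA that was recovered. The RefSeq promoter table (GRCm38.p6) held 6 of the 10 genes. The last 100 bases before the start, on the plus strand, are given for chr10:86300312-86300411, chr6:4505518-4505617 and chr1:45311438-45311537, with capitals marking motif matches on either strand. The motif letters searched for the core promoter box were TATAAA. For the upstream box bound by factor NF-Y they were CCAAT. The GC-rich box bound by SP1 was searched as the letters GGGCGG.
Timp3: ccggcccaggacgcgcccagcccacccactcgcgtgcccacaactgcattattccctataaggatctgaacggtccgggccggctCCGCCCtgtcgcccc
Col1a2: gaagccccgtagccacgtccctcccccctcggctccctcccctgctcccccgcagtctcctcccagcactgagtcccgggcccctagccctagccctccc
Col3a1: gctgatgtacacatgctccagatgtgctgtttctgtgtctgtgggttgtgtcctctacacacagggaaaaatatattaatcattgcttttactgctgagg
The Timp3 stretch held 1 match, to the SP1 box on the minus strand, and the collagen stretches shown held none. Among the other genes in the table, the Vim stretch held 1 match to the core promoter box and 1 to the NF-Y box, 1 of 2 Postn stretches held 1 match to the core promoter box, and the Sparc stretch held none. Genes with lower values thus held matches as well. Of all 32851 promoters in the table, 24.7% held the SP1 box letters, 18.9% those of the NF-Y box and 5.56% those of the core promoter box in the same window. A match is a description of letters and not a binding site.

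Fn1 encodes fibronectin, a glycoprotein that links cells to collagen through integrins. Its normalized log2 signal was 2.99 and 2.64 in input, 5.51 and 2.92 in mock IP, 3.59 and 2.34 in anti-V5 IP and 3.46 and 2.34 in anti-GFP IP. Mock IP 1 stood above all other arrays, and the remaining groups overlapped. The anti-V5 IP differed from mock IP by -1.25 ± 0.83 (log2, SE; adjusted p 0.251) and anti-GFP IP by -1.31 ± 0.83 (adjusted p 0.225). When blocked by slide the adjusted p was 0.0434 and 0.0346. Without mock IP 1 the differences were 0.048 and -0.015, and without mock IP 2 they were -2.54 and -2.61 and were called (adjusted p 0.0337 and 0.0296). Against input they were 0.15 (95% interval -1.77 to 2.07) and 0.086 (-1.84 to 2.01), which leaves differences of several fold in either direction undetected. The other 2 Fn1 probes gave -1.37 and -1.26 in anti-V5 IP relative to mock IP.

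The spots show that the spread of Fn1 and Col1a1 lay between arrays and not within them. The 10 spots of the Fn1 probe on mock IP 1 ran from 5.42 to 5.59 and those on mock IP 2 from 2.85 to 3.01. For Col1a1 they ran from 2.88 to 3.08 on mock IP 1 and from 1.08 to 1.25 on mock IP 2. The SD over spots was 0.050 for Fn1 and 0.064 for Col1a1 on mock IP 1, and no probe of the 10 genes was saturated.

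**Figure D3:**
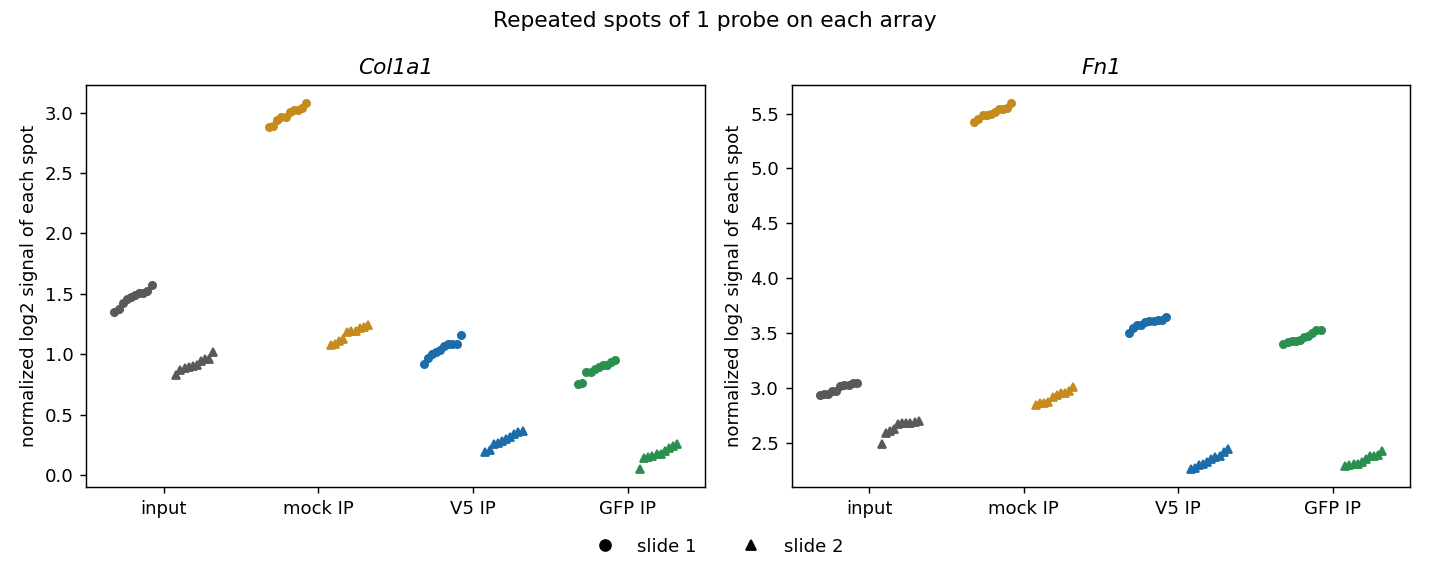
Normalized log2 signal (y axis) of each of the 10 spots of the brightest Col1a1 and Fn1 probes on each array, by group; circles are slide 1 and triangles slide 2, and spots are drawn in order of their value. Spots of 1 array lie close together, while the Fn1 spots of mock IP 1 (5.42 to 5.59) and mock IP 2 (2.85 to 3.01) are far apart.

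Sparc encodes osteonectin, a collagen-binding matrix glycoprotein. It gave 5.89 and 5.71 in input, 5.44 and 4.94 in mock IP, 4.41 and 4.48 in anti-V5 IP and 4.54 on both anti-GFP IP arrays. The order from input to mock IP to antibody IP held with no overlap. Against input, Sparc was 2.56-fold lower in anti-V5 IP (adjusted p 0.00839) and 2.40-fold lower in anti-GFP IP (adjusted p 0.00911). A second kept probe gave log2 differences of -1.36 and -1.32 there. Neither call held without input 1 or input 2 or without the first array of that IP, where the differences were -1.44 to -1.27 in anti-V5 IP and -1.35 to -1.17 in anti-GFP IP. Relative to mock IP the differences were -0.75 ± 0.25 (log2, SE; adjusted p 0.0513) and -0.65 ± 0.25 (adjusted p 0.0672), with 0.0219 and 0.0322 under the block. They were -0.50 and -0.40 without mock IP 1, and without mock IP 2 they were -0.99 and -0.90 and were called (adjusted p 0.0179 and 0.0205).

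Postn encodes periostin, a matrix protein of collagen-rich tissues. Its signal was -0.58 and -0.93 in input, -2.39 and -1.71 in mock IP, -3.42 and -2.28 in anti-V5 IP and -3.87 and -2.40 in anti-GFP IP. Input lay above all 6 IP arrays, and mock IP and anti-V5 IP overlapped. Against input, Postn was 4.28-fold lower in anti-V5 IP (adjusted p 0.0292), the lowest fitted value of the 10, and 5.22-fold lower in anti-GFP IP (adjusted p 0.0160), where Dcn has only a bound and cannot be ranked. By slide the anti-V5 IP difference was -2.84 and -1.35 (log2) and the anti-GFP IP difference -3.29 and -1.47. The anti-V5 IP call was lost without either input array, either mock IP array or anti-V5 IP 1 (-2.27 to -1.53, adjusted p up to 0.148), and the anti-GFP IP call without either input array or anti-GFP IP 1 (-2.56 to -1.65). Mock IP was itself 1.29 ± 0.56 (log2, SE) below input (adjusted p 0.151, and 0.0380 when blocked by slide). Relative to mock IP the antibody IPs differed by -0.80 (adjusted p 0.271) and -1.09 (adjusted p 0.145). The anti-GFP IP value had an adjusted p of 0.0422 under the block and 0.0394 without anti-GFP IP 2 (-1.82). The differences were -1.14 and -1.43 without mock IP 1, and not called.

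Dcn encodes decorin, a small leucine-rich proteoglycan that binds collagen fibrils. Its probe was dim: it was well above background on both input arrays, 1 of 2 mock IP arrays, 1 of 2 anti-V5 IP arrays and no anti-GFP IP array. The values were -4.41 and -3.79 in input, -5.54 and -4.46 in mock IP, -6.24 and -5.22 in anti-V5 IP and -6.43 and -5.78 in anti-GFP IP. Input lay above both antibody IPs. Dcn was called lower in anti-GFP IP than in input (adjusted p 0.0193 for the fitted values), with a bound of 3.12-fold from group means. That bound sets the input mean against, on each anti-GFP IP array, either the probe's own signal or the dimmest signal of any probe that was well above background, whichever is higher. In anti-V5 IP it fell by 1.63 ± 0.49 on the log2 scale against input (adjusted p 0.0443). Both calls were lost without either input array or the first array of that IP, with differences of -1.94 to -1.12 in anti-V5 IP. Quantile normalization, the deposited table, no filter on dim probes and the mean of all kept probes also ended the anti-V5 IP call (adjusted p 0.0509 to 0.0785). With normexp neither was called (-1.28 and -0.51, adjusted p 0.275 and 0.818). Dcn was not called in anti-V5 IP relative to mock IP (-0.73, adjusted p 0.260, and 0.0222 when blocked by slide). That difference was -1.27 without mock IP 1 (adjusted p 0.162). In anti-GFP IP the same calculation with the mock IP mean in place of the input mean gave a 1.67-fold lower value. This is not a minimum, because Dcn was well above background on only 1 of 2 mock IP arrays. The fitted difference from mock IP was -1.10, with an adjusted p of 0.104, and 0.00472 when blocked by slide. With normexp it was 0.097.

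Vim encodes vimentin, the intermediate filament protein of mesenchymal cells. Its normalized log2 signal was 3.87 and 3.97 in input, 3.12 and 3.62 in mock IP, 2.17 and 3.09 in anti-V5 IP and 2.10 and 2.96 in anti-GFP IP. On each slide the values ran from input down to anti-GFP IP in that order. Against input, Vim was 2.62-fold lower in anti-GFP IP (adjusted p 0.0350). That call was lost without either input array, either mock IP array or anti-GFP IP 1 (-1.44 to -0.96, adjusted p up to 0.197). The anti-V5 IP difference, -1.29 ± 0.41 (log2, SE), just missed the threshold (adjusted p 0.0506, and 0.00482 when blocked by slide), and was called without anti-V5 IP 2 or either anti-GFP IP array. Relative to mock IP the differences were -0.74 ± 0.41 (adjusted p 0.176) and -0.84 ± 0.41 (adjusted p 0.126), with 0.0351 and 0.0203 under the block. They were -0.99 and -1.09 without mock IP 1, and not called.

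Thy1 encodes a cell-surface glycoprotein found on fibroblasts, neurons and T cells. It gave 0.39 and -0.42 in input, 1.02 and -0.18 in mock IP, -0.56 and -0.90 in anti-V5 IP and -0.42 and -0.81 in anti-GFP IP. The antibody IPs lay below mock IP, though the anti-V5 IP and anti-GFP IP values came close to input 2. No Thy1 comparison was called with all 8 arrays and no block. Relative to mock IP the differences were -1.15 ± 0.45 (log2, SE; adjusted p 0.0764) in anti-V5 IP and -1.04 ± 0.45 (adjusted p 0.0950) in anti-GFP IP, and under the block the adjusted p was 0.00939 and 0.0104. Without mock IP 1 they were -0.55 and -0.43, which were not called, and without mock IP 2 they were -1.75 and -1.64 and were called (adjusted p 0.0244 and 0.0270).

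Fold changes of all genes relative to mock IP had a long right tail, in which Timp3 lay, and a narrow left side that held the other 9 genes of the set. In anti-V5 IP against input, Col3a1 and Fn1 lay right of 0 with Timp3, and Postn was the lowest.

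**Figure D4:**
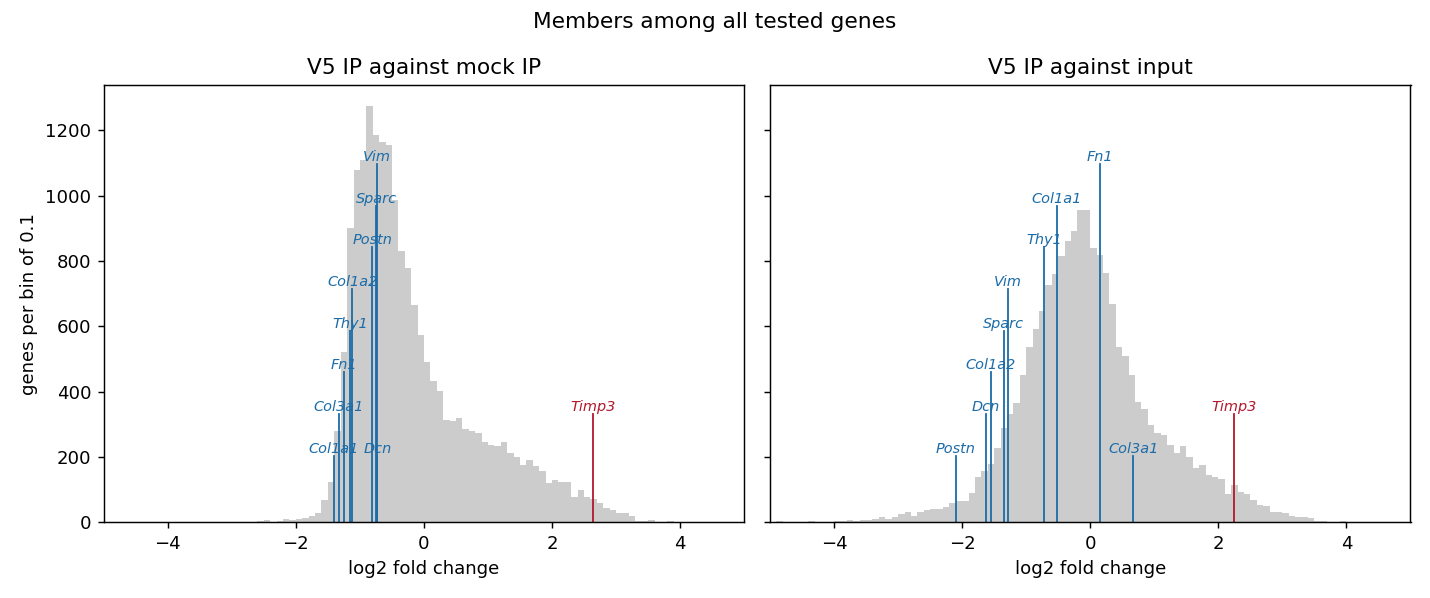
Number of tested genes per bin of 0.1 (y axis) by log2 fold change (x axis) in anti-V5 IP relative to mock IP (left) and against input (right), with the 10 genes marked; label heights carry no value. Timp3 lies at 2.64 and 2.24, and the lowest of the 10 are Col1a1 at -1.41 relative to mock IP and Postn at -2.10 against input.

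No difference between the antibodies was called for the 10 genes. In anti-V5 IP against anti-GFP IP 0 of the 10 and 0% of all 19033 genes were called higher, and 0 of the 10 and 0% were called lower (limma). At an unadjusted p under 0.05 there were 187 genes, none of the 10 among them, and when blocked by slide 1 gene of the whole array was called. For Timp3 the difference was -0.12 (95% interval -0.67 to 0.44), and for Fn1 it was 0.063 (-1.86 to 1.99). The intervals leave room for differences between the antibodies that these arrays would not detect.

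Related genes were described by 10 lists with 251 genes beyond the 10, of which 227 were measured. No gene was on more than 1 list. Their counts are to be read against all genes, of which 14.6% were called higher and 21.4% lower in anti-V5 IP relative to mock IP and 16.3% and 26.5% in anti-GFP IP. With the block these shares were 19.4% and 38.4%, and 20.9% and 40.2%. With centring on the median they were 14.9% and 8.2%, and 17.6% and 15.1%. Of the 227 list genes, 23 were called higher and 70 lower in anti-V5 IP relative to mock IP (10.1% and 30.8%). In anti-GFP IP the counts were 28 and 73 (12.3% and 32.2%). The median of the 227 was -0.66 and -0.61, where all genes had -0.44 in both. Without mock IP 1 it was -0.50 and -0.49, where all genes had -0.36 in both. Without mock IP 2 it was -0.88 and -0.81, where all genes had -0.49 in both. List counts below use all 8 arrays.

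Among 28 other collagen genes, 0 were called higher and 10 lower in anti-V5 IP relative to mock IP, and 0 and 9 in anti-GFP IP (35.7% and 32.1% of the list lower). When blocked by slide 22 and 21 were lower, and with arrays centred on the median 3 and 7. Their median log2 fold change was -0.97 and -1.05, against -0.44 for all genes. Without mock IP 1 it was -0.56 and -0.58, against -0.36 for all genes. Col2a1, the cartilage collagen, fell by 1.40 ± 0.27 and by 1.64 ± 0.27 (adjusted p 0.0133 and 0.00634), but differed from input by 0.16 and -0.076 (adjusted p 0.697 and 0.856). Mock IP itself was above input by 1.56 ± 0.27 for Col2a1 (adjusted p 0.0252). Col11a1 fell by 1.30 ± 0.35 in anti-V5 IP relative to mock IP (adjusted p 0.0283). It was called lower than input in both IPs (-1.38 and -1.48, adjusted p 0.0237 and 0.0161), while its mock IP differed from input by -0.082 (adjusted p 0.886). Against input the counts were 1 higher and 2 lower in anti-V5 IP and 1 and 1 in anti-GFP IP (2 and 5 in both with the block). In mock IP against input 6 of the 28 collagens were called higher and 0 lower, and 13 and 0 with the block.

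Among 27 genes of collagen processing and cross-linking, 3 were higher and 10 lower in anti-V5 IP relative to mock IP. In anti-GFP IP the counts were 3 and 9. The shares lower were 37% and 33.3%. The block gave 3 and 13, and 4 and 12. The medians were -0.62 and -0.50, and without mock IP 1 -0.49 and -0.45. Plod2, a lysyl hydroxylase of collagen, rose by 1.78 ± 0.33 and 1.89 ± 0.33 (log2, SE; adjusted p 0.0122 and 0.00795), and was also higher than input. Bmp1, a protease that trims procollagen, fell by 1.38 ± 0.28 and by 1.51 ± 0.28 (adjusted p 0.0157 and 0.00922), with -0.33 and -0.46 against input, not called. Mock IP itself was above input by 1.05 for Bmp1 (adjusted p 0.0526, and 0.0183 with the block). Of 14 basement membrane genes, 0 were higher and 7 lower in anti-V5 IP and 0 and 8 in anti-GFP IP, with medians of -0.83 and -0.86. These were 50% and 57.1% of the list, and with the block 10 and 9 genes were lower. Without mock IP 1 the medians were -0.68 and -0.81. Centring on the median left 1 and 5 of them lower, and 6 and 8 of the processing genes. Lamb2, a laminin chain, fell by 1.45 ± 0.37 and by 1.55 ± 0.37 (adjusted p 0.0269 and 0.0174), with -0.76 and -0.86 against input, not called. The latter had an adjusted p of 0.0309 with the block. Lama1, another laminin chain, was called lower than input in both IPs (-1.37 and -1.54, adjusted p 0.00726 and 0.00423). Against input 0 of the 14 were higher and 5 and 4 lower (all genes 14.1% and 16% higher, 13.7% and 16.8% lower). The list medians there were -0.77 and -0.80, where all genes had -0.11.

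Of 39 matrix glycoprotein and elastic fibre genes, 3 were higher and 7 lower in anti-V5 IP relative to mock IP and 4 and 12 in anti-GFP IP. The shares lower, 17.9% and 30.8%, were near those of all genes. The medians were -0.56 and -0.81, and without mock IP 1 -0.41 and -0.57. The block gave 5 and 17 in anti-V5 IP and 5 and 20 in anti-GFP IP, and centring on the median 3 and 3, and 4 and 6. Spp1, which encodes osteopontin, rose by 2.17 ± 0.38 and 2.23 ± 0.38 (adjusted p 0.00913 and 0.00686), and Ltbp3, a latent TGF-beta binding protein, fell by 1.20 ± 0.25 and by 1.41 ± 0.25 (adjusted p 0.0163 and 0.00768). Neither was called against input, where Spp1 had 1.02 and 1.08 and Ltbp3 -0.30 and -0.51. When blocked by slide, Spp1 was called higher than input in both (adjusted p 0.00881 and 0.00615). Mock IP itself differed from input by -1.15 for Spp1 (adjusted p 0.0841, and 0.0104 with the block). For Ltbp3 it differed by 0.90 (adjusted p 0.0564, and 0.0207 with the block). Of 20 proteoglycan genes, 2 were higher and 3 lower in anti-V5 IP and 3 and 4 in anti-GFP IP, shares of 15% and 20% lower that did not exceed those of all genes (3 and 7, and 5 and 6, with the block, and 2 and 1, and 3 and 1, with centring). Sdc2, a transmembrane heparan sulfate proteoglycan, rose by 1.95 ± 0.27 and 2.04 ± 0.27 (adjusted p 0.00407 and 0.00313), and was also called higher against input. Mock IP itself differed from input by -0.74 for Sdc2 (adjusted p 0.106, and 0.0449 with the block). The proteoglycan medians were -0.50 and -0.41, and without mock IP 1 -0.33 and -0.31.

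Timp3's own functional group, 26 other matrix proteases and inhibitors, had 4 higher and 9 lower in anti-V5 IP relative to mock IP and 4 and 8 in anti-GFP IP (34.6% and 30.8% lower). Adam10, a membrane metalloprotease, rose by 1.42 ± 0.27 and 1.66 ± 0.27 (adjusted p 0.0128 and 0.00603). Timp4, another inhibitor of the same family, fell by 0.95 ± 0.23 and by 0.97 ± 0.23 (adjusted p 0.0240 and 0.0166). Against input neither was called, with 0.36 and 0.60 for Adam10 and 0.11 and 0.087 for Timp4. Mock IP itself differed from input for both genes, by -1.06 for Adam10 (adjusted p 0.0475) and by 1.06 for Timp4 (adjusted p 0.0352). The group's median was -0.73 and -0.61, and without mock IP 1 -0.54 and -0.40. Centring on the median gave 4 higher and 2 lower, and 4 and 5, and the block 4 and 12 in both. Of 20 matrix receptor genes, 1 was higher and 7 lower in anti-V5 IP and 4 and 6 in anti-GFP IP, or 35% and 30% lower (4 and 7, and 7 and 7, with the block, and 1 and 2, and 5 and 5, with centring). Itga6 rose by 0.72 ± 0.24 and 0.80 ± 0.24 (adjusted p 0.0473 and 0.0308), and Itga5, the fibronectin receptor alpha chain, fell by 1.39 ± 0.30 and by 1.44 ± 0.30 (adjusted p 0.0182 and 0.0120). Against input Itga6 was called higher as well, and Itga5 was not called (-0.63 and -0.68). With the block the Itga5 values had an adjusted p of 0.0462 and 0.0324. Mock IP itself was above input by 0.76 for Itga5 (adjusted p 0.122, and 0.0301 with the block). The receptor medians were -0.17 and 0.059, and without mock IP 1 -0.19 and -0.11.

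The TGF-beta pathway, which induces collagen and fibronectin genes in fibroblasts, was the list with the largest share of genes called higher. Of 15 measured genes, 7 were higher and 2 lower in each antibody IP relative to mock IP, or 46.7% higher. The medians were 0.16 and 0.40, and without mock IP 1 0.16 and 0.31 (all genes -0.36 in both). Tgfbr1, the type I receptor, rose by 2.45 ± 0.25 in both (adjusted p 0.00212 and 0.00186). Skil, a repressor of SMAD signalling, rose by 2.09 ± 0.23 and 2.14 ± 0.23 (adjusted p 0.00236 and 0.00197). Tgfb1, a ligand, fell by 1.12 ± 0.23 and by 1.20 ± 0.23 (adjusted p 0.0165 and 0.00993), with -0.32 and -0.40 against input, not called. Mock IP itself was above input by 0.80 for Tgfb1 (adjusted p 0.0624, and 0.0213 with the block). Against input 7 of the 15 were higher and 0 lower in each IP (all genes 14.1% and 16% higher, 13.7% and 16.8% lower). Centring gave 7 higher and 1 lower relative to mock IP in each, and the block 7 and 4 in anti-V5 IP and 7 and 3 in anti-GFP IP.

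Of 18 other intermediate filament genes, the family of Vim, 2 were higher and 10 lower (55.6%) in each antibody IP relative to mock IP. The medians were -1.11 and -1.24, and without mock IP 1 -0.79 and -0.92. The block gave 2 and 12, and 2 and 13, and centring 2 and 7, and 2 and 8. The lamin genes of this list moved apart. Lmna fell by 1.46 ± 0.32 and by 1.62 ± 0.32 (adjusted p 0.0188 and 0.0106), while Lmnb1 rose by 1.87 ± 0.40 and 1.37 ± 0.40 (adjusted p 0.0182 and 0.0294). Against input the Lmna value of -1.15 in anti-GFP IP was called (adjusted p 0.0283), while -0.99 in anti-V5 IP and the Lmnb1 values of 1.18 and 0.68 were not. With the block the anti-V5 IP values of Lmna and Lmnb1 were called as well (adjusted p 0.0283 and 0.0361). Of 20 fibroblast and mesenchyme markers, 1 was higher and 5 lower in each (3 and 10, and 3 and 8, with the block). The 25% lower was near the share of all genes. The marker medians were -0.62 and -0.45, and without mock IP 1 -0.88 and -0.67. Acta2, smooth muscle actin, fell by 1.28 ± 0.28 and by 1.48 ± 0.28 (adjusted p 0.0193 and 0.00977), and Zeb1, a transcription factor of mesenchymal cells, rose by 1.11 ± 0.33 and 1.13 ± 0.33 (adjusted p 0.0369 and 0.0297). Both were called in the same direction against input.

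**Figure D5:**
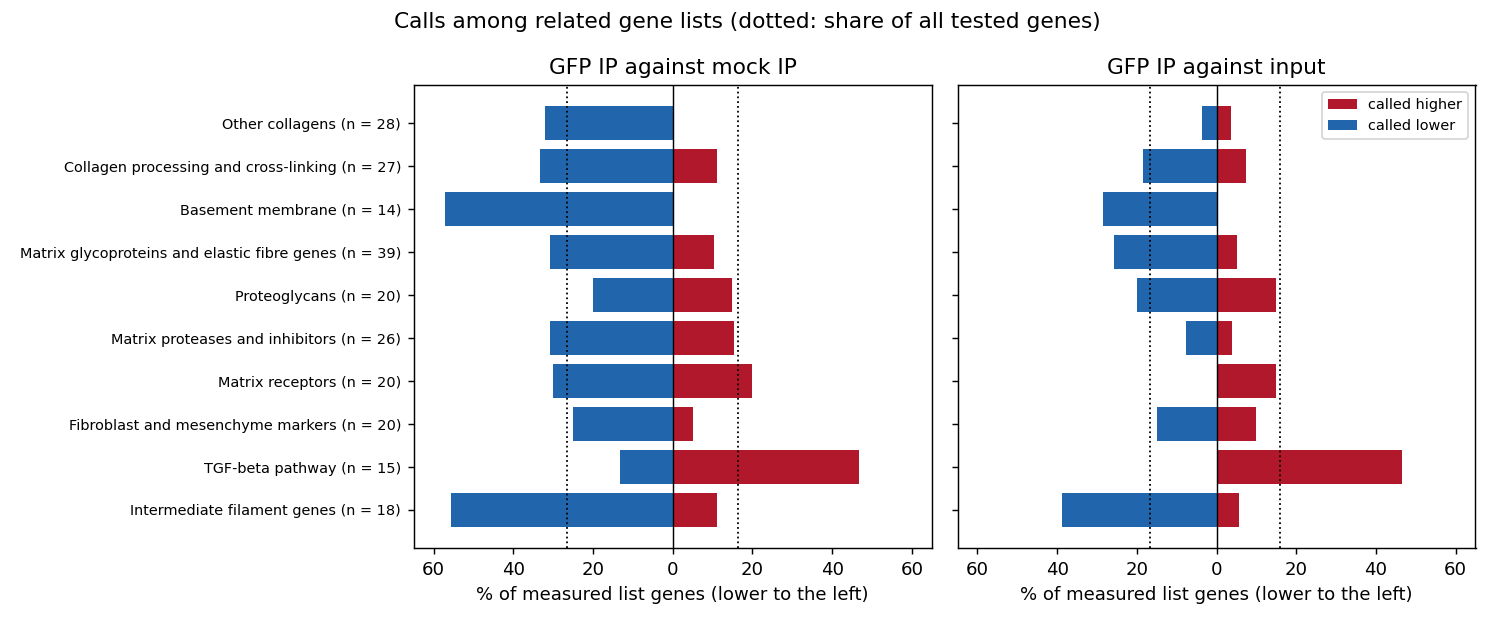
Share of the measured genes of each list (x axis, %) called higher (red, right) or lower (blue, left) in anti-GFP IP relative to mock IP and against input; dotted lines give the share of all tested genes. The TGF-beta list has 7 of 15 genes higher in both panels, and the basement membrane list has 0 higher.

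Genes with the most similar profile over the 8 arrays were found as those with the smallest root mean square (RMS) difference after centring each gene on its own mean. Against the mean of the 3 fibrillar collagen genes these were Rabac1 (RMS 0.043), Spns1, Zfp428, Slc22a7 and Serinc2, where the median gene of 19023 had an RMS of 0.67. Against Vim they included Ap3b1 (0.060), LOC632900, Capn2 and Pdzd11. For Timp3, a comparison added after its values were seen, they were Pot1a (0.072), Usp37, Dnajc6, Asph and Fyttd1, whose log2 fold changes in anti-V5 IP relative to mock IP lay between 2.55 and 2.71. Fold changes near that of Timp3 follow from picking genes by these same arrays. The 8 arrays share labelling and scaling, and these likenesses are a description of profiles.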

How the data were processed

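Cy3-labelled RNA of 8 samples was hybridised to Agilent mouse 4x44K arrays. Per the file headers, scanning used Agilent Feature Extraction 9.1.3.1, and the deposited values are linear spot intensities after background subtraction and detrending. The authors also deposited a GeneSifter table of signal values, median-normalized per the file headers. It served as an alternative (log2 of the deposited signal plus 0.1), and its deposited quality score was used to match its 45018 entries to spots (tolerance 1e-05).

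From the processed intensity, log2 values were taken and the array's 75th percentile (41174 gene probes) subtracted, after averaging a probe's spots without outlier spots. The 28104 probes that were well above background in both replicates of some group were kept, and the brightest one stood for each of 19033 genes. RefSeq's gene table (GRCm38.p6) named 22951 probes by accession, 6659 by symbol and 3096 by synonym, while 8468 kept the name in the file. The 10 genes kept the probes with their own name, and a probe named by a synonym of Postn stayed under its file name.

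All 8 arrays entered 1 limma fit (limma 3.58.1, R 4.3.3, two-sided moderated test), with Benjamini-Hochberg adjustment across genes. The fit was tested on simulated data, but the outcome is not reported here and no result rests on it. Replicate numbers are slides, and arrays of a slide deviated together (correlations 0.30 to 0.78), so a fit blocked by slide is given where it changes a call. The alternatives were the block, normexp background correction, quantile normalization, the deposited table, no filter on dim probes, the compared groups alone, centring on the median, the mean of all kept probes, and leaving out each array.

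All 10 genes are named in each comparison. List examples come from the 2 highest and 2 lowest moderated t of each list relative to mock IP, and the nearest 5 profiles are those of the collagen mean and Vim, of which 1 gene is not reported here. The 10 genes, lists and rules were chosen with earlier results of these data known.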

Additional observations from a re-analysis of the deposited data

How the results depend on the processing

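The number of genes of the 10 called lower moved most. In anti-V5 IP relative to mock IP the 2 became 8 with the slide as a replicate block, 1 with the authors' deposited table, and 0 with normexp, with no filter on dim probes, with the compared groups alone and with centring on the median. In anti-GFP IP relative to mock IP the 2 became 9 with the block and 0 with normexp. Leaving out 1 array gave 0 to 6 in both. In anti-V5 IP against input the 4 became 0 with normexp and 2 with no filter, and in anti-GFP IP against input the 5 became 1 with normexp. Leaving out 1 array gave 0 to 5 in both. In mock IP against input the 1 higher became 2 with the block and 0 with normexp, with no filter and with the compared groups alone, and 0 to 2 without 1 array. The 0 lower became 2 with the block. Timp3 was called under all 16 alternatives in the 4 comparisons of antibody IPs with controls. The cause of the other changes was not tested, except that fewer arrays leave fewer degrees of freedom.

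Signs turned for values that were not called. Dcn in anti-GFP IP relative to mock IP was 0.097 with normexp. Fn1 against input was -0.093 in anti-V5 IP and -0.16 in anti-GFP IP with quantile normalization, and -0.0037 in anti-GFP IP with the mean of its probes. In anti-V5 IP against anti-GFP IP, normexp gave -0.12 for Postn, -0.77 for Dcn and 0.0070 for Sparc. The following ranges come from leaving out each array in turn. Fn1 ran from -2.54 to 0.048 in anti-V5 IP relative to mock IP, from -0.48 to 0.77 in anti-V5 IP against input and from -0.47 to 0.65 in anti-GFP IP against input. In mock IP against input, Col1a1 ran from -0.027 to 1.79, Col1a2 from -0.90 to 0.022 and Thy1 from -0.17 to 1.03. In anti-V5 IP against anti-GFP IP, Col1a1 ran from -0.24 to 0.52, Fn1 from -0.56 to 0.69, Vim from -0.36 to 0.56, Thy1 from -0.31 to 0.078, Postn from -0.45 to 1.02, Dcn from -0.14 to 0.88 and Timp3 from -0.26 to 0.024. There the median of the 10 less that of all genes ran from -0.010 to 0.11. The number of arrays, 2 per group, limits every value, and the Dcn probe is near background.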
